A study of Mus musculus with 22 samples.

Results

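The 10 genes described here are Fgf18, Peg3, Eno2, Cemip2, Tex15, Calhm5, Ccdc125, Hps4, Hps6 and Prkca, out of 54373 genes listed and 16639 protein-coding genes that were tested. They were selected on measured values, namely a difference of AhR-/- to WT lung epithelial cells (ECs) after house dust mite (HDM) that was not the one at steady state. Symbols were matched to the Ensembl identifiers of the deposited count tables, and all 10 passed the filter on low counts. After HDM, 7 of them (Fgf18, Peg3, Cemip2, Tex15, Calhm5, Ccdc125 and Prkca) were higher and 3 (Eno2, Hps4 and Hps6) lower in the libraries labelled AhR-/- than in WT, whereas at steady state 7 of the 10 overlapped between these genotypes. Of all genes 19.5% did not overlap after HDM and 3.56% at steady state. Since the genes were chosen by these values, they are given as a description without a test. The third genotype, CYP1B1-/-, has 7 libraries that are on neither side of that difference. There 6 of the 10 genes passed the test between HDM and steady state, against 33.4% of all genes. Of these 6, Peg3 missed the threshold in 12 of 17 alternative settings. The choice of the genes includes the change of WT between states, so this count is no separate support for the choice. Sex of the mice and run of the libraries cannot be told apart from state there.

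ECs were sorted from lungs of C57BL/6 WT mice and of AhR-/- and CYP1B1-/- mice backcrossed to C57BL/6. Both knockouts are germline deletions carried by all cells of the mouse. Mice were untreated (steady state: 4 WT, 3 AhR-/- and 3 CYP1B1-/- libraries) or were sensitized and challenged through the nose with extract of the mite Dermatophagoides farinae (HDM: 4 libraries per genotype). Mice of both sexes were used, and the labels do not say whether the libraries of a group came from separate mice, so that p-values measure only the spread between these libraries. Untreated and HDM libraries were deposited as separate tables named as separate runs, so state and run cannot be told apart. Age of the mice was not assigned to single libraries in the sources used here.

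The aryl hydrocarbon receptor (AhR) is a transcription factor that is activated by small molecules, such as tryptophan metabolites and pollutants, pairs with ARNT in the nucleus and binds DNA at a short core, GCGTG. CYP1B1 is a cytochrome P450 enzyme that is induced by AhR and can break down its ligands. ECs of the alveoli comprise flat type 1 cells (AT1), which cover the gas exchange surface, and type 2 cells (AT2), which make surfactant and store it in lamellar bodies, a lysosome-related organelle.

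The libraries had between 9654825 and 17878442 counts, of which between 1180756 and 16447855 were protein-coding and outside a few dominant predicted genes. The gene Gm10800 alone took 0.00819% to 71.9% of a library. Values are counts per mio (CPM) on TMM-normalized library sizes over all 22 libraries, and 3 counts correspond to 0.107 to 1.36 CPM. Depth on the 10 genes was low in AhR-/- HDM replicate 3, with 3 to 59 reads per gene, CYP1B1-/- HDM replicate 2, with 5 to 40, and WT HDM replicate 2, with 4 to 53. Counting error and the spread between libraries both enter the fitted standard errors (SE). Of epithelial genes, Epcam was at 68.2 to 312 CPM, and Ager and Sftpc were counted in every library. At steady state the sum of Epcam, Cdh1, Krt8 and Krt18 was 1116 to 1646 CPM in WT, 1254 to 1447 in AhR-/- and 1466 to 1597 in CYP1B1-/-. After HDM this sum was 481 to 778 CPM in WT, 682 to 865 in AhR-/- and 520 to 698 in CYP1B1-/-. Ptprc, which encodes the CD45 that the sort removed, was at 2.02 to 52.6 CPM at steady state. After HDM it was at 209 to 637 CPM in WT, 14.8 to 161 in AhR-/- and 26.2 to 669 in CYP1B1-/-. Ptprc exceeded Epcam in every WT HDM library and in CYP1B1-/- HDM replicates 1, 3 and 4. Ahr itself was not lower in the libraries labelled AhR-/- (12.8 to 25.5 CPM after HDM, against 9.62 to 20.0 in WT; 15.5 to 20.1 at steady state, against 6.38 to 12.3), so reads summed over all exons do not check that label. Cyp1b1 was higher in all libraries labelled CYP1B1-/- (3.62 to 13.5 CPM) than in all WT libraries (0.644 to 2.31), so these reads do not check that label either. In what follows, AhR-/- and CYP1B1-/- stand for the libraries labelled so. The Y-linked gene Ddx3y had 19.7 to 99.8 CPM in all steady-state libraries, 67.3 and 69.6 CPM in AhR-/- HDM replicates 3 and 4, and at most 0.0859 CPM in the other HDM libraries.

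Promoter sequences were at hand in RefSeq (GRCm38.p6) for 8 of the 10 genes, all but Cemip2 and Tex15. The core GCGTG, searched on both strands as GCGTG or CACGC in windows of 300 bases from 250 before the start to 50 after it, was present in 4 of the 8 windows (Peg3, Hps4, Hps6 and Prkca) and in 32.4% of all 32851 RefSeq windows. A match describes letters only. The bases before the start are shown for the 3 genes that hold the core there, because they allow a reader to see where it lies. The stretches end before the earlier of the RefSeq and the GENCODE start, which left out the last 12 bases before the RefSeq start in Peg3 and the last 40 in Prkca. They read from 5′ to 3′ on the gene's own strand, with the core or its complement in capitals. Peg3 spans chr7:6730432-6730669 (minus strand), Hps6 chr19:46003228-46003477 (plus strand) and Prkca chr11:108343929-108344138 (minus strand).
Peg3: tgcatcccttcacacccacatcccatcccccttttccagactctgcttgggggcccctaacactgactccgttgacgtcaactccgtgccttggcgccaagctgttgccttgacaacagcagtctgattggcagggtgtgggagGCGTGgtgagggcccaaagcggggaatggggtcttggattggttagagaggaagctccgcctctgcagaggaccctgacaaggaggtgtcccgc
Hps6: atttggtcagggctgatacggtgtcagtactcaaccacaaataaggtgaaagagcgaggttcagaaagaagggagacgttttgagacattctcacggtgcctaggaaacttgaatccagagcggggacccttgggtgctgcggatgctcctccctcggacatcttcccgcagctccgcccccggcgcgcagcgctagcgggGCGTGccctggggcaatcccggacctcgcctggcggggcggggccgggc
Prkca: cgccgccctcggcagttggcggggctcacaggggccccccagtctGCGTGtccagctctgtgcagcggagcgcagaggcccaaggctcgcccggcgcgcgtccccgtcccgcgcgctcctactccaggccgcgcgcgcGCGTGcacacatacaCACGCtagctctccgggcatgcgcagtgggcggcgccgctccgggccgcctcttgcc
Counted from the RefSeq start, and thus with these bases included, the core began at base -106 in Peg3, at -49 in Hps6 and at -205, -112 and -97 in Prkca. In Hps4 the core lay behind the start, at base 39, and Prkca held a further one there at base 6. Of these 4 genes, Peg3 and Prkca were higher and Hps4 and Hps6 lower in AhR-/- HDM libraries, and the windows of Fgf18, Eno2, Calhm5 and Ccdc125 do not hold these letters.

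Per kb of exon, Fgf18 had the highest level of the 10 in WT at steady state (7.13 ± 0.845 CPM per kb, SD, n = 4), followed by Prkca (5.05 ± 0.92), Hps6 (3.89 ± 0.711), Calhm5 (3.15 ± 0.29), Cemip2 (2.93 ± 0.494), Ccdc125 (2.46 ± 0.302), Hps4 (2.19 ± 0.314), Tex15 (1.25 ± 0.162), Peg3 (0.584 ± 0.114) and Eno2 (0.119 ± 0.0312). Neighbours from Prkca down to Hps4 overlapped between libraries in this order, whereas Fgf18, Tex15, Peg3 and Eno2 stood apart from their neighbours. In WT after HDM the order was led by Hps4 (6.57 ± 2.46 CPM per kb), Hps6 (4.23 ± 0.998) and Eno2 (1.72 ± 0.759), and Fgf18 was at 0.853 ± 0.133. In AhR-/- HDM libraries Fgf18 was again highest (5.63 ± 2.75) and Eno2 lowest (0.288 ± 0.0798).

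**Figure D1:**
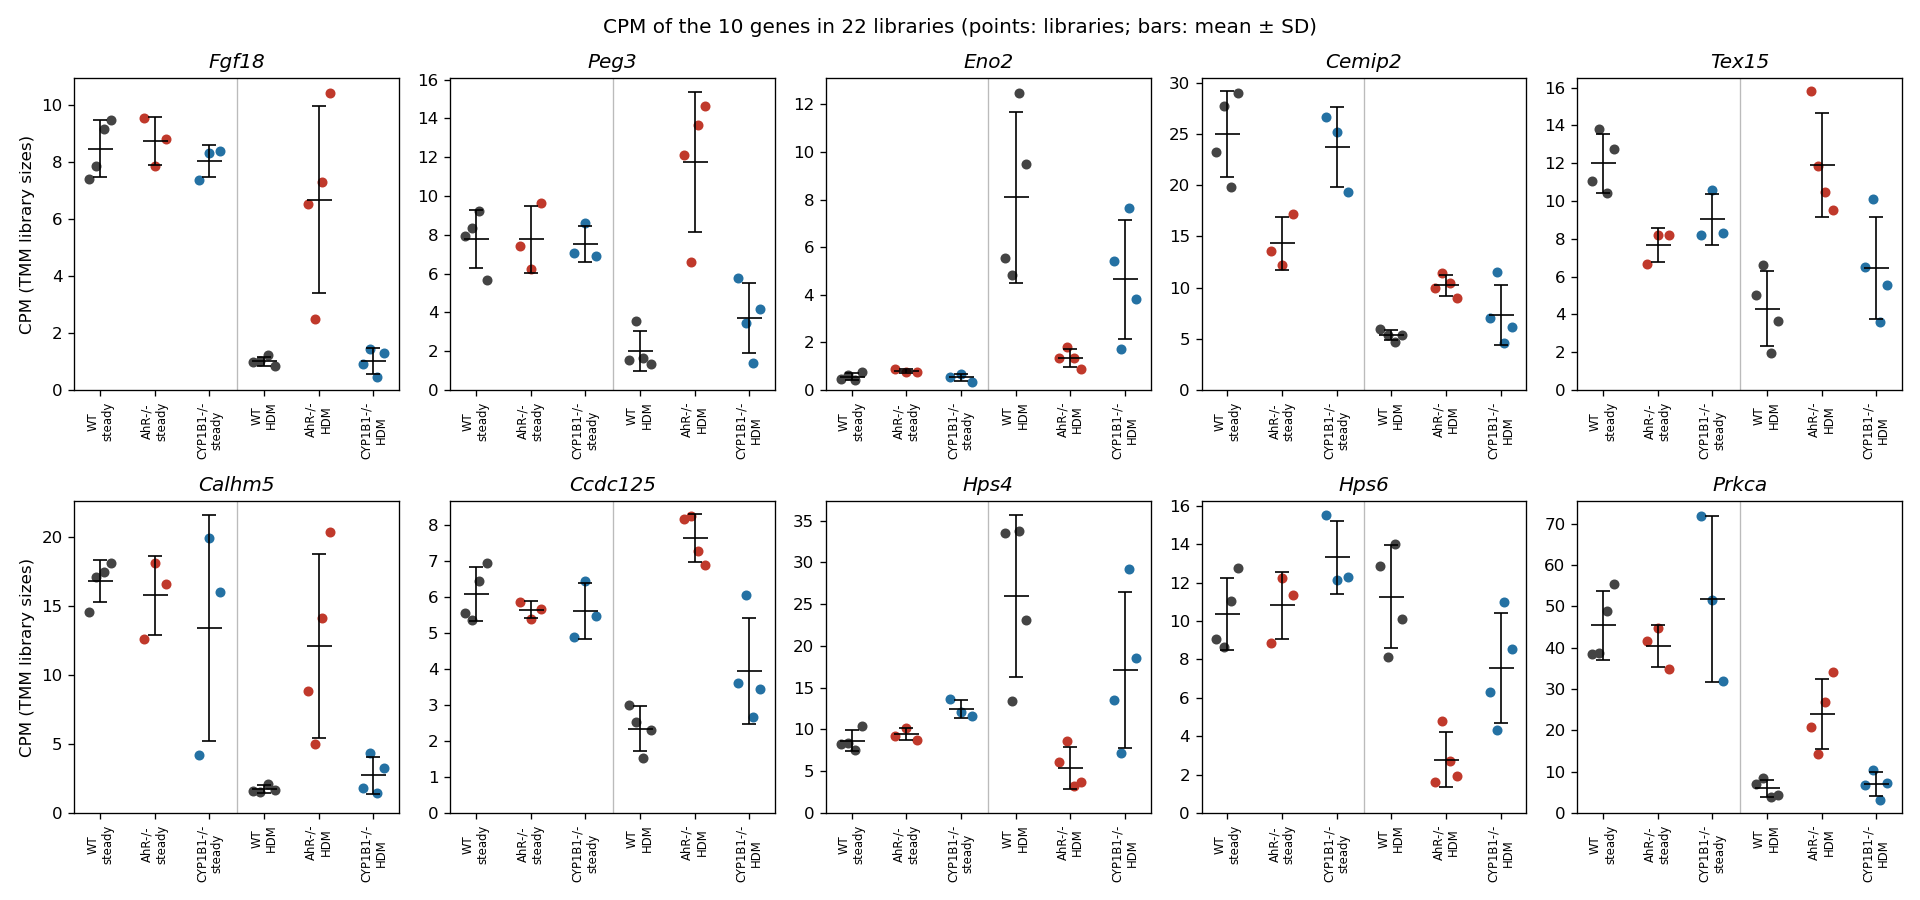
CPM of the 10 genes (linear axes from 0) in each of the 22 libraries by genotype and state, with 1 point per library and the mean ± SD in black. After HDM all AhR-/- points (red) lie above all WT points (grey) for 7 genes and below them for Eno2, Hps4 and Hps6.

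Fgf18 (ENSMUSG00000057967, chr11:33117430-33147400, minus strand) encodes a secreted fibroblast growth factor that signals through FGF receptors and takes part in lung development. At steady state it was at 7.40, 7.84, 9.14 and 9.48 CPM in WT, at 9.52, 7.87 and 8.80 in AhR-/- and at 7.37, 8.31 and 8.37 in CYP1B1-/- libraries. After HDM, WT libraries were at 0.987, 1.01, 1.22 and 0.833 CPM and CYP1B1-/- libraries at 0.902, 1.44, 0.453 and 1.29, while AhR-/- libraries were at 6.52, 2.49, 7.28 and 10.4. The steady-state groups overlapped, and the lowest AhR-/- HDM library, replicate 2, was above every WT and CYP1B1-/- HDM library. Reads were few: WT HDM libraries had 4 to 22 of them. The fitted difference of AhR-/- to WT was 2.73 on the log2 scale (SE 0.52) after HDM and 0.02 (SE 0.16) at steady state.

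Prkca (ENSMUSG00000050965, chr11:107933387-108343928, minus strand) encodes protein kinase C alpha, a conventional isoform that is activated by calcium and diacylglycerol. Its CPM after HDM were 7.13, 8.37, 3.96 and 4.36 in WT, 20.9, 14.3, 26.8 and 34.1 in AhR-/- and 6.85, 10.4, 3.22 and 7.38 in CYP1B1-/- libraries. At steady state the values were 38.4, 38.8, 49.0 and 55.4 in WT, 41.7, 44.7 and 34.9 in AhR-/-, and 72.0, 51.6 and 31.9 in CYP1B1-/-. Each genotype was thus lower after HDM in all its libraries. AhR-/- HDM libraries were above all other HDM libraries, and the highest of them was above the lowest steady-state library of CYP1B1-/-. The AhR-/- to WT difference on the log2 scale was 2.01 (SE 0.44) after HDM and -0.18 (SE 0.25) at steady state. Apoh on the opposite strand overlaps 0.334% of the exon length of Prkca.

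Calhm5 (ENSMUSG00000049872, chr10:34087815-34096519, minus strand) belongs to the calcium homeostasis modulators, a family of large-pore channels. WT libraries had 14.6 to 18.1 CPM at steady state and 1.57, 1.52, 2.13 and 1.67 after HDM. AhR-/- libraries had 12.6, 18.1 and 16.5 CPM at steady state and 8.85, 4.98, 14.1 and 20.3 after HDM, and thus spread widely after HDM without reaching the WT values. CYP1B1-/- libraries had 4.18, 19.9 and 16.0 CPM at steady state, where replicate 2 was far below the other two, and 1.80, 4.32, 1.46 and 3.28 after HDM. The log2 difference of AhR-/- to WT was 2.80 (SE 0.49) after HDM and -0.12 (SE 0.35) at steady state.

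Cemip2 (ENSMUSG00000024754, chr19:21778342-21858360, plus strand) encodes a membrane protein linked to the breakdown of hyaluronan. It was lower in AhR-/- than in WT at steady state (13.5, 12.2 and 17.2 against 23.3, 27.7, 19.8 and 29.0 CPM) and higher after HDM (10.0, 11.4, 10.5 and 9.01 against 5.92, 5.33, 4.72 and 5.38). CYP1B1-/- libraries had 26.7, 25.1 and 19.3 CPM at steady state and 7.03, 11.5, 4.63 and 6.15 after HDM. Neither pair of AhR-/- and WT groups overlapped, in opposite directions, with log2 differences of -0.83 (SE 0.19) at steady state and 0.92 (SE 0.33) after HDM. An antisense gene, AC148016.1, overlaps 1.14% of its exon length, and the handling of strand in the counting is not given in the sources used here.

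Tex15 (ENSMUSG00000009628, chr8:33516738-33585582, plus strand), which is known from meiosis and the silencing of transposons in germ cells, was like Cemip2 lower in AhR-/- than in WT at steady state and higher after HDM. Steady-state values were 11.0, 13.8, 10.4 and 12.7 CPM in WT and 6.65, 8.22 and 8.18 in AhR-/-. After HDM they were 5.02, 6.60, 1.98 and 3.65 in WT and 15.8, 11.9, 10.5 and 9.54 in AhR-/-. The log2 difference of AhR-/- to WT changed from -0.67 (SE 0.17) at steady state to 1.45 (SE 0.44) after HDM, again without overlap in either state. CYP1B1-/- libraries had 8.22, 10.6 and 8.31 CPM at steady state and 6.49, 10.1, 3.62 and 5.56 after HDM, so that they overlapped between states. Within AhR-/-, Tex15 was higher after HDM than before in every library, whereas Cemip2 was lower in every one.

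Peg3 (ENSMUSG00000002265, chr7:6703892-6730431, minus strand) encodes a zinc finger protein of an imprinted locus expressed from the paternal allele, and starts 147 bp from its neighbour Usp29. WT libraries were at 7.94, 8.33, 9.21 and 5.66 CPM at steady state and at 1.52, 3.55, 1.67 and 1.35 after HDM. AhR-/- libraries were at 7.43, 6.26 and 9.66 CPM at steady state and at 12.1, 6.61, 13.6 and 14.7 after HDM. CYP1B1-/- libraries were at 7.09, 8.62 and 6.89 CPM at steady state and at 5.77, 3.46, 1.41 and 4.16 after HDM. Only replicate 2 of the AhR-/- HDM libraries was within the steady-state range, and the other three exceeded all steady-state libraries. The log2 difference of AhR-/- to WT was 2.59 (SE 0.54) after HDM and -0.04 (SE 0.23) at steady state.

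Ccdc125 (ENSMUSG00000048924, chr13:100669717-100697240, plus strand), a gene for a coiled-coil protein, varied little within the AhR-/- HDM libraries. These had 8.17, 8.24, 7.28 and 6.89 CPM, against 3.00, 2.54, 1.52 and 2.31 in WT and 3.61, 6.05, 2.67 and 3.46 in CYP1B1-/- after HDM. At steady state the 3 genotypes overlapped between 4.89 and 6.95 CPM. AhR-/- differed from WT by 1.69 on the log2 scale (SE 0.35) after HDM and by -0.13 (SE 0.17) at steady state.

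Eno2 (ENSMUSG00000004267, chr6:124760053-124769673, minus strand), the gamma enolase of glycolysis known best from neurons, was low at steady state and high after HDM in WT. Its CPM rested on 6 to 16 reads per library in WT at steady state (0.477, 0.617, 0.406 and 0.736) and on 19 to 148 after HDM (5.56, 4.82, 12.5 and 9.49). In AhR-/- libraries it was at 0.898, 0.747 and 0.738 CPM at steady state and at 1.36, 1.80, 1.36 and 0.884 after HDM, the third of these from 3 reads. CYP1B1-/- HDM libraries had 5.41, 1.73, 7.65 and 3.81 CPM, of which replicate 2 was within the AhR-/- range. Between AhR-/- and WT the log2 difference was -2.57 (SE 0.47) after HDM and 0.47 (SE 0.38) at steady state.

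Hps4 (ENSMUSG00000042328, chr5:112343083-112378414, plus strand) and Hps6 (ENSMUSG00000074811, chr19:46003508-46006173, plus strand, a gene of 1 exon) encode subunits of the protein complexes that build lysosome-related organelles and are mutated in Hermansky-Pudlak syndrome, which can include lung fibrosis. Hps4 pairs with Hps1 to activate the small GTPases Rab32 and Rab38, and Hps6 forms a complex with Hps3 and Hps5. An antisense gene, Gm20636, overlaps 3.37% of the exon length of Hps4. After HDM, Hps4 was at 33.5, 13.4, 33.8 and 23.1 CPM in WT, at 6.06, 8.59, 3.18 and 3.71 in AhR-/- and at 13.5, 7.20, 29.2 and 18.6 in CYP1B1-/- libraries. At steady state it was at 7.59 to 10.4 CPM in WT, 8.80 to 10.2 in AhR-/- and 11.6 to 13.7 in CYP1B1-/-, with the last above WT in every library. Hps4 was thus higher after HDM than before in each WT library and lower in each AhR-/- library, with log2 differences of AhR-/- to WT of -2.19 (SE 0.38) after HDM and 0.10 (SE 0.16) at steady state.

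Hps6 was the exception in WT, since its libraries overlapped between states: 9.07, 8.64, 11.0 and 12.7 CPM at steady state and 12.9, 8.12, 14.0 and 10.1 after HDM. AhR-/- libraries had 8.86, 12.2 and 11.4 CPM at steady state and 1.61, 4.81, 2.73 and 1.94 after HDM. CYP1B1-/- libraries had 15.5, 12.1 and 12.3 CPM at steady state and 6.31, 4.32, 11.0 and 8.55 after HDM, all below their own steady-state values. The other nine genes did not overlap between states in WT, where 38.9% of all genes did not. The log2 difference of AhR-/- to WT was -2.01 (SE 0.36) after HDM and 0.04 (SE 0.18) at steady state.

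**Figure D2:**
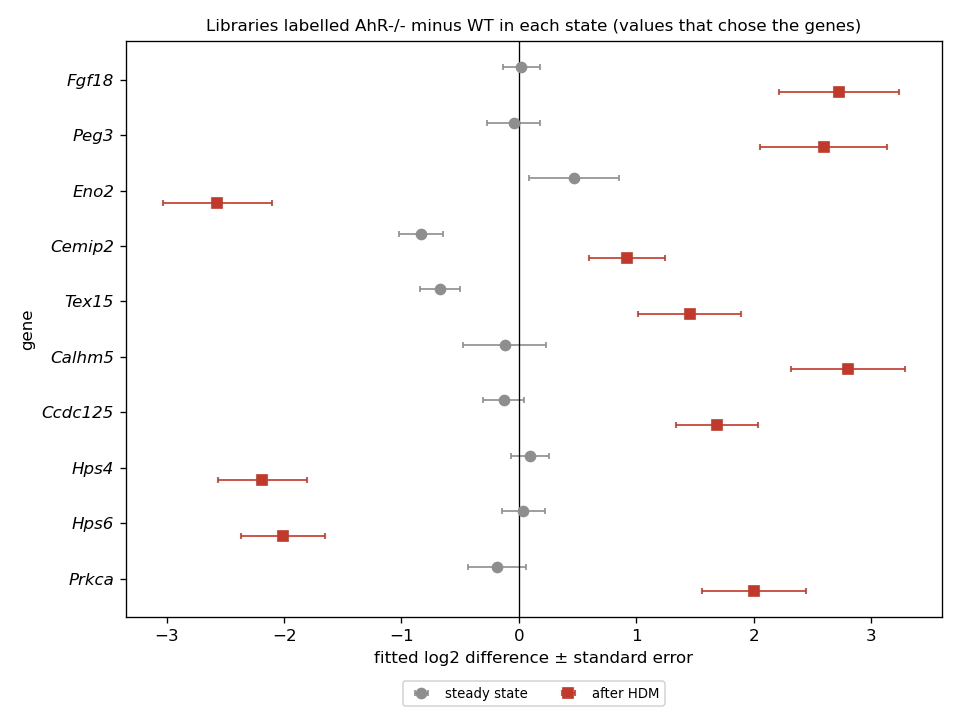
Fitted log2 difference of AhR-/- libraries to WT (x axis, ± SE) for each gene at steady state (grey) and after HDM (red). Steady-state values lie between -0.83 and 0.47 and HDM values between -2.57 and 2.80.

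In all 10 genes the AhR-/- and WT libraries did not overlap after HDM, 7 with AhR-/- higher and 3 with AhR-/- lower. Of all 14160 genes compared in this way 19.5% did not overlap (9.6% with AhR-/- higher and 9.91% with AhR-/- lower), and since the same contrast chose the 10 genes nothing is read from this count. At steady state 3 of the 10 did not overlap (Eno2 higher, Cemip2 and Tex15 lower), against 3.56% of 15547 genes (2.1% higher and 1.46% lower). The difference between both differences ranged in size from 1.73 (Cemip2, SE 0.36) to 3.03 on the log2 scale (Eno2, SE 0.62, with a negative sign). It was positive for Calhm5 (2.87, SE 0.63), Fgf18 (2.67, SE 0.52), Peg3 (2.63, SE 0.54), Prkca (2.18, SE 0.50), Tex15 (2.15, SE 0.46) and Ccdc125 (1.80, SE 0.39), and negative for Hps4 (-2.33, SE 0.51) and Hps6 (-2.09, SE 0.46). When genes were ordered by p of this contrast, the 10 took places 2 and 4 to 11, and 13. Cxcl13 (1), Smad9 (3) and Cpox (12) stood among them. Just inside was Prkca, and just outside were Zfp612 (1.80, SE 0.42) and Aldh16a1 (-2.65, SE 0.62). Over all 16639 genes the quasi-likelihood test of edgeR called 0 genes (0%) at an adjusted p of 0.05, with 3050 genes at an unadjusted p under 0.05. Other tools called more: 221 genes with the likelihood ratio test, 1236 with DESeq2 and 5042 with limma voom and sample weights, 2 changes made together.

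CYP1B1-/- libraries are on neither side of the contrast that chose the genes, but share with it the filter, the normalization and the estimate of the spread. The libraries labelled CYP1B1-/- were compared between HDM and steady state with the quasi-likelihood test of edgeR and Benjamini-Hochberg adjustment over all 16639 genes. In this test 5 of the 10 genes fell and 1 rose, that is 6 of 10, against a background of 33.4% of all genes (17.9% lower, 15.5% higher). The state difference in WT is part of the contrast that chose the genes, so nothing is read from this count either. Prkca fell by 2.94 on the log2 scale (SE 0.37, adjusted p = 1.13e-05 in edgeR) and Fgf18 fell by 3.06 (SE 0.40, adjusted p = 1.32e-05 in edgeR). Cemip2 fell by 1.74 (SE 0.26, edgeR adjusted p = 4.35e-05) and Calhm5 fell by 2.36 (SE 0.46, edgeR adjusted p = 0.000342). The libraries of Calhm5 nevertheless touched, since steady-state replicate 2 (4.18 CPM) was below HDM replicate 2 (4.32 CPM). Eno2 rose by 3.16 (SE 0.48, edgeR adjusted p = 4.68e-05). Peg3 fell by 1.06 (SE 0.38, edgeR adjusted p = 0.0351), but missed the threshold in 12 of 17 alternative settings (adjusted p 0.017 to 0.137 over all of them). When the 7 CYP1B1-/- libraries were fitted alone, Fgf18 (adjusted p = 0.00167 in edgeR), Prkca, Cemip2, Eno2 and Calhm5 (adjusted p = 0.00947 in edgeR) passed and Peg3 did not (adjusted p = 0.124 in edgeR).

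The remaining 4 genes did not pass. Values were -0.78 for Hps6 (95% interval -1.42 to -0.14, edgeR adjusted p = 0.0725), -0.56 for Ccdc125 (-1.11 to -0.01, edgeR adjusted p = 0.139), -0.54 for Tex15 (-1.19 to 0.11, edgeR adjusted p = 0.238) and 0.49 for Hps4 (-0.24 to 1.21, edgeR adjusted p = 0.364). Without CYP1B1-/- HDM replicate 2, the library with the lowest Ptprc of its group (26.2 CPM), Ccdc125 (adjusted p = 0.0483 in edgeR) and Hps4 (adjusted p = 0.0403 in edgeR, 0.86 on the log2 scale) passed and Peg3 (adjusted p = 0.116 in edgeR) did not. Without replicate 3 of that group, Hps6 passed (adjusted p = 0.0289 in edgeR) and Peg3 did not (adjusted p = 0.126 in edgeR). All 3 steady-state libraries of this genotype hold Y-linked reads and none of the HDM libraries does, so the sex of the mice, run and state cannot be told apart.

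Side by side, the state difference in WT was -3.08 for Fgf18 (SE 0.38), -2.94 for Prkca (SE 0.36), -3.29 for Calhm5 (SE 0.46), -2.22 for Cemip2 (SE 0.25), -2.05 for Peg3 (SE 0.38) and 3.82 for Eno2 (SE 0.44) on the log2 scale. In AhR-/- libraries the same genes had -0.41 (SE 0.35), -0.76 (SE 0.35), -0.41 (SE 0.43), -0.48 (SE 0.26), 0.58 (SE 0.38) and 0.79 (SE 0.47). For Fgf18 and Prkca the CYP1B1-/- value was thus next to that of WT. For Tex15, Ccdc125 and Hps4 the CYP1B1-/- value was between WT (-1.50, -1.35 and 1.59) and AhR-/- (0.65, 0.45 and -0.74). Hps6 ranged from 0.13 in WT (SE 0.31) to -1.96 in AhR-/- (SE 0.35). WT and AhR-/- values belong to the contrast that chose the genes and are given without a test.

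**Figure D3:**
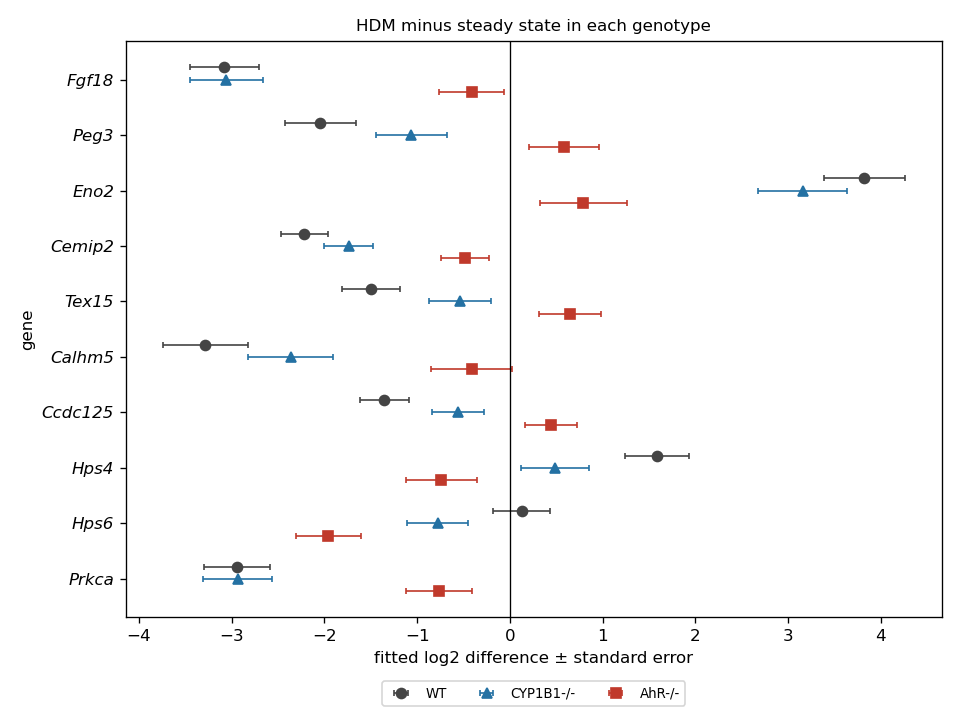
Fitted log2 difference of HDM to steady state (x axis, ± SE) for each gene in WT (grey circles), CYP1B1-/- (blue triangles) and AhR-/- (red squares). CYP1B1-/- values lie close to WT for Fgf18 (-3.06 and -3.08) and Prkca (-2.94 and -2.94) and between WT and AhR-/- for the other eight genes.

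The direct comparison of CYP1B1-/- with WT shares its WT libraries with the contrast that chose the genes and is also only described. After HDM all 10 genes overlapped between CYP1B1-/- and WT, where 0.621% of 14160 genes did not. At steady state Hps4 was higher in every CYP1B1-/- library than in every WT library and the other nine overlapped, where 2.93% of 15547 genes did not overlap (1.78% with CYP1B1-/- higher). Log2 differences of CYP1B1-/- to WT after HDM reached from -0.74 for Eno2 (SE 0.42) to 1.00 for Peg3 (SE 0.55), and that of Fgf18 was 0.00 (SE 0.37).

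Marker sums of several cell types differed between the HDM groups. The 16 hematopoietic markers (Ptprc, Cd74, Coro1a, Laptm5 and others) summed to 4011 to 12498 CPM in WT, 599 to 4431 in AhR-/- and 1806 to 12318 in CYP1B1-/- after HDM, and to 80.6 to 509 CPM at steady state. Of these markers 13 were counted in all 22 libraries, and Cd3e and Nkg7 were at 0 in 1 library each. The 7 AT1 markers (Ager, Hopx, Pdpn, Aqp5, Cav1, Rtkn2 and Clic5, none at 0) summed to 708 to 5094 CPM in WT, 3556 to 21833 in AhR-/- and 493 to 4541 in CYP1B1-/- after HDM, and to 15871 to 32008 CPM at steady state. After HDM, the sum of 6 neuroendocrine markers was 39.9 to 86.6 CPM in AhR-/-, 9.36 to 24.4 in WT and 8.96 to 53.6 in CYP1B1-/- libraries, and Syp among them was at 0 in 1 library. Eno2, which is also known from neuroendocrine cells, was lower in AhR-/- than in WT in the same libraries. The ciliated sum was 219 to 242 CPM in AhR-/-, 117 to 209 in WT and 129 to 224 in CYP1B1-/-, so that neither of these sums overlapped between AhR-/- and WT. The club sum was 1686 to 8070.0 CPM in AhR-/-, 195 to 1825 in WT and 277 to 4999 in CYP1B1-/-, and the mesenchymal sum 70.5 to 112, 29.4 to 74.3 and 29.2 to 269 CPM. The AT2 sum was 8382 to 79277 CPM in AhR-/-, 5492 to 30597 in WT and 7548 to 46800.2 in CYP1B1-/-, and the endothelial sum 9.1 to 28.9, 19.6 to 32.4 and 17.9 to 30.7 CPM. In such bulk libraries fewer cells of a type and less RNA per cell cannot be told apart, and the part of these markers in the results was not tested.

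Fgf18, Peg3, Calhm5 and Prkca were each lowest in replicate 2 among the AhR-/- HDM libraries, which was also lowest in the AT1 sum, and highest in replicate 4 (10.4, 14.7, 20.3 and 34.1 CPM), which was highest in it. Cemip2 and Ccdc125 ran the other way, highest in replicate 2 (11.4 and 8.24 CPM) and lowest in replicate 4 (9.01 and 6.89 CPM). Tex15 was also lowest in replicate 4 (9.54 CPM) and highest in replicate 1. The 3 genes that were lower in AhR-/- (Eno2, Hps4 and Hps6) were each highest in replicate 2.

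**Figure D4:**
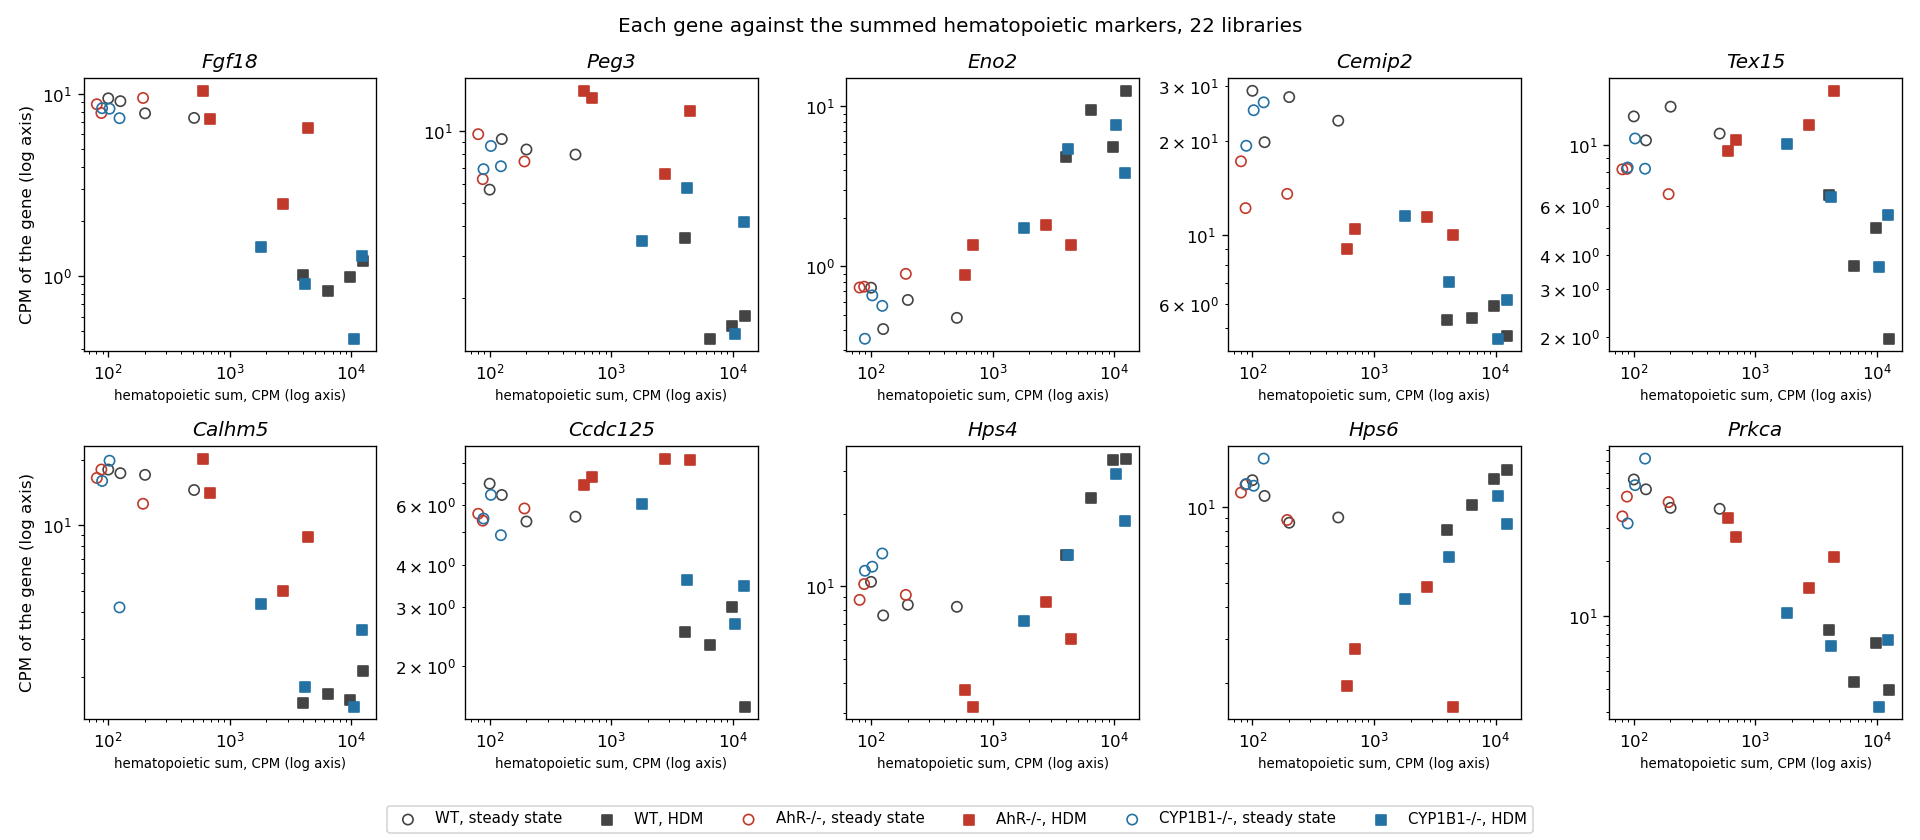
CPM of each gene (y, log axis) against the summed CPM of hematopoietic markers (x, log axis) in the 22 libraries; open circles are steady state and filled squares HDM. AhR-/- HDM squares (red) lie at 599 to 4431 CPM. This range also holds a WT HDM library at 4011 CPM and CYP1B1-/- HDM libraries at 1806 and 4181 CPM. Replicate 2 of AhR-/- HDM (2754 CPM) and of CYP1B1-/- HDM (1806 CPM) differed by 1.01-fold (Cemip2) to 1.91-fold (Peg3) over the genes. Fgf18 was at 6.52 CPM in AhR-/- HDM replicate 1 (4431 CPM) and at 1.01 CPM in WT HDM replicate 2 (4011 CPM). The part of this sum in the results was not tested.

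**Figure D5:**
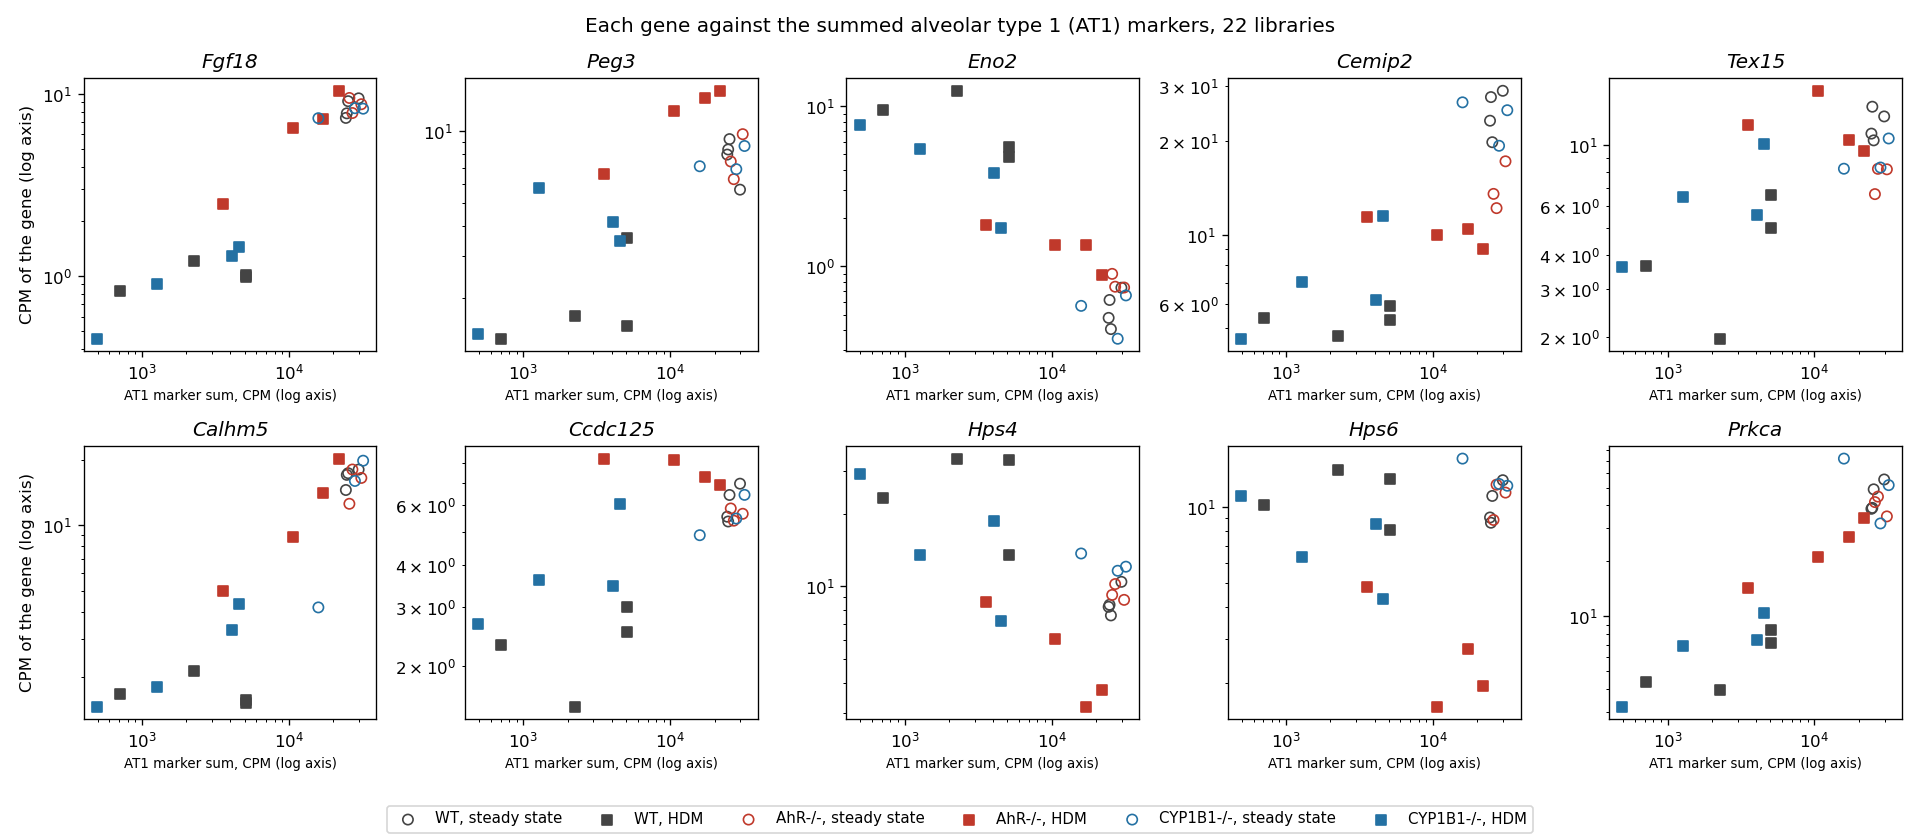
CPM of each gene (y, log axis) against the summed CPM of 7 AT1 markers (x, log axis) in the same libraries. Fgf18 and Prkca were at 0.453 and 3.22 CPM in the CYP1B1-/- HDM library at 493 CPM of the AT1 sum. In AhR-/- HDM libraries they were at 10.4 and 34.1 CPM in that at 21833 CPM, and at 2.49 and 14.3 CPM in that at 3556 CPM. The CYP1B1-/- HDM library at 4541 CPM had 1.44 and 10.4 CPM. WT HDM libraries had 0.987 and 7.13 CPM (AT1 sum 5094 CPM) and 1.01 and 8.37 CPM (AT1 sum 5093 CPM). The part of the AT1 sum in these values was not tested.

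The 2 AhR-/- HDM libraries with Y-linked reads (replicates 3 and 4) were left out as an alternative chosen after the data were seen. The log2 difference of AhR-/- to WT after HDM was then 2.12 for Fgf18, 1.96 for Calhm5 and 1.52 for Prkca, and each of the 10 genes kept its sign. Over all genes, this comparison called 3129 of 14161 genes (22.1%), and 0 genes without these libraries, without AhR-/- replicate 1, 3 or 4, or without WT replicate 3 or 4. Without WT replicate 1 it called 885, and with a block on the replicate number it called 1. The pathway counts that follow for AhR-/- and WT after HDM rest on all 8 libraries.

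Among partners of Hps4 and Hps6 and other genes of lysosome-related organelles, 6 of 20 tested were lower and 2 higher in AhR-/- than in WT after HDM (adjusted p at most 0.05 in edgeR, which 12.9% of all genes met with a lower and 9.22% with a higher level; median of the 20 -0.34 on the log2 scale, of all genes 0.00). Lower were Hps1, the partner of Hps4 (-1.35, SE 0.36), Hps3 (-1.83, SE 0.48) and Hps5 (-1.15, SE 0.34), the partners of Hps6, as well as Rab32 (-2.69, SE 0.59) and the AP-3 adaptor subunits Ap3b1 (-1.01, SE 0.30) and Ap3d1 (-0.74, SE 0.24). Snapin (1.37, SE 0.32) and Bloc1s4 (1.36, SE 0.30), subunits of a further complex of this group, were higher. In CYP1B1-/- between HDM and steady state, where 15.5% of all genes rose and 17.9% fell, 5 of the 20 rose, among them Rab32 (3.76, SE 0.61) and Hps3 (1.79, SE 0.48), and 2 fell, Snapin (-1.23, SE 0.34) and Bloc1s5 (-0.67, SE 0.25).

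Glycolysis genes beside Eno2 were lower in AhR-/- after HDM in 7 of 16 tested, against 12.9% of all genes, and higher in 0, against 9.22% (median -1.23). They were the glucose transporter Slc2a1 (-1.70, SE 0.35), Hk1, Gpi1, Pfkp, Aldoc, Ldha (-1.53, SE 0.39) and the muscle enolase Eno3 (-1.67, SE 0.55), whereas Eno1, the enolase of most cells, had -1.09 (SE 0.38, edgeR adjusted p = 0.0556). In CYP1B1-/- between states 4 of 16 rose (Hk2, Aldoc, Eno3 and Ldha; 15.5% of all genes) and 2 fell (Pfkl and Pfkm; 17.9% of all genes). Eno3 had a difference of 2.88 (SE 0.59) there, next to 3.16 of Eno2.

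Of 13 tested genes of protein kinase C and its substrates other than Prkca, 3 were higher and 2 lower in AhR-/- after HDM (median -0.69), against 9.22% and 12.9% of all genes, so that the count of lower genes was near that of all genes. Higher were Prkci (2.43, SE 0.61), Prkce (1.54, SE 0.38) and Prkd1 (2.58, SE 0.76), and lower Prkcd (-1.50, SE 0.33) and Prkd2 (-0.80, SE 0.26). Between states in CYP1B1-/-, 5 of 14 rose, among them Prkcb, Prkch and the substrates Marcks and Marcksl1, and 4 fell, Prkce, Prkci, Prkcz and Prkd1, against 15.5% and 17.9% of all genes.

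Of 15 tested genes of FGF signalling, Spry1, a feedback inhibitor, was higher in AhR-/- after HDM (1.84, SE 0.56) and 0 were lower (median 0.81), against 9.22% and 12.9% of all genes. The FGF receptor genes Fgfr2 (1.44, SE 0.58, edgeR adjusted p = 0.0847) and Fgfr3 (0.81, SE 0.43, edgeR adjusted p = 0.18) did not pass. In CYP1B1-/- between states 3 of 17 fell, among them Fgf1 (-3.29, SE 0.65) and Fgfr3 (-1.48, SE 0.36), and 2 rose, Etv5 and Spred1, which is near the share of all genes (17.9% and 15.5%). Among 11 tested imprinted genes beside Peg3, Plagl1 (2.56, SE 0.60), Sgce (2.10, SE 0.60) and Snrpn (2.42, SE 0.58) were higher in AhR-/- after HDM and 0 lower (median 0.87), against 9.22% and 12.9% of all genes, while Usp29, the neighbour of Peg3, had -0.40 (SE 1.31, edgeR adjusted p = 0.861). In CYP1B1-/- the same 3 genes, Grb10 and Igf2r fell between states (5 of 14, against 17.9% of all genes) and 0 rose.

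Between AhR-/- and WT after HDM, where 12.9% of all genes were lower and 9.22% higher, the remaining lists held 2 called genes. Of 10 hyaluronan genes Hmmr, a hyaluronan receptor, was lower (-2.45, SE 0.52) and 0 higher, of 2 other Calhm genes Calhm2 was lower (-2.48, SE 0.47), that is opposite to Calhm5, and of 4 tested genes of the germline piRNA pathway 0 passed, with 1 at an unadjusted p under 0.05 in edgeR. Between states in CYP1B1-/-, where 15.5% of all genes rose and 17.9% fell, Cd44 and Hmmr rose and Hyal2 fell among 12 hyaluronan genes, Calhm2 and Calhm6 rose among 3, and Piwil2 and Piwil4 rose among 11 germline genes. The hyaluronan and germline counts of genes that rose were near the share of all genes. At steady state edgeR called 0 genes of any of these lists between AhR-/- and WT (0% of all genes), with 0 to 2 genes per list at an unadjusted p under 0.05, and for the difference of the differences 0 as well, with 1 to 7 per list.

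Genes whose log2 CPM followed that of a member most closely over the 22 libraries were, by Pearson's r among 13806 genes, Synm for Prkca (0.982), Plce1 for Fgf18 (0.975), Tbc1d19 for Calhm5 (0.972), Pip5k1c for Hps4 (0.971), Dcstamp for Eno2 (0.961), Naif1 for Hps6 (0.955), Nbea for Ccdc125 (0.947), Id4 for Peg3 (0.942), Fam160a1 for Cemip2 (0.939) and Zcchc14 for Tex15 (0.928). In the next place were Igf2bp2 for Prkca (0.98), Cadm1 for Fgf18 (0.974), Cdc14b for Calhm5 (0.969), Eml3 for Hps4 (0.964), Gnb4 for Eno2 (0.96), Polrmt for Hps6 (0.947), Esrp1 for Ccdc125 (0.94), Etl4 for Peg3 (0.925), Dsel for Cemip2 (0.937) and Ccdc125, itself one of the 10, for Tex15 (0.917). After subtraction of the 6 group means, Plce1 (0.951), Id4 (0.824) and Zcchc14 (0.924) kept the first place for Fgf18, Peg3 and Tex15, and for Prkca it was Prkd1 (0.936), a kinase of the list above. For Hps4 it was Tkt (0.977), an enzyme of the pentose phosphate pathway, followed by Gpi1 (0.971). All points share the libraries with their depth and marker sums, and the values describe likeness only.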

How the data were processed

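RNA of sorted ECs was sequenced by the authors, mapped to mm10 with GSNAP and counted per gene with featureCounts 2.0.0. The deposited values are raw read counts per gene, as whole numbers that were not normalized. How strand and reads with several positions were treated is not given in the sources used here.

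Gene identifiers were matched to GENCODE M21 (54147 of 54373) and 21793 protein-coding genes were kept. In R 4.3.3, edgeR 4.0.16 was applied with filterByExpr (minimum count 10, minimum total 15), TMM, glmQLFit with robust estimation, glmQLFTest and Benjamini-Hochberg adjustment at 0.05. Comparisons within a state used its own libraries and all others the 22 libraries in 1 fit. CPM use TMM library sizes, and log2 CPM a prior count of 1. The fits were also run on simulated counts in which some genes were altered, the outcome of which is not given here. The genes and lists were chosen with earlier results of these data known. Named besides them were list genes that passed a test or are partners or paralogs, and for each gene the 2 genes most alike over the 22 libraries. Aldoa of the glycolysis list matched several identifiers and was left out. No 2 libraries of a group agreed within sampling noise, with a chi-square per degree of freedom of at least 8.02. Alternatives used the likelihood ratio test, DESeq2 1.42.0, limma 3.58.1 (voom with sample weights), other filters, RLE, genes of every biotype, a block on the replicate number and libraries left out. The values of 1 hematopoietic marker are not reported here.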

Additional observations from a re-analysis of the deposited data

Results flagged for a closer look

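For 3 of the genes every AhR-/- library lay on opposite sides of all WT libraries in the 2 states. Eno2 was higher in AhR-/- at steady state and lower after HDM, a change of the log2 difference of -3.03. At steady state the nearest Eno2 values of both genotypes were 0.738 and 0.736 CPM, from 12 and 16 reads, and the fitted 0.47 had a 95% interval of -0.28 to 1.22, which includes 0. Cemip2 and Tex15 were lower in AhR-/- at steady state and higher after HDM, with changes of 1.73 and 2.15. This contrast chose the genes, so the difference was not tested. In the groups of 4 libraries, 40 sets of log2 CPM values were examined for a library far from the others. Of these sets 0 exceeded the critical value of Dixon's test, where chance gives about 2. The 0 holds for the log2 scale only. In linear CPM, Peg3 in WT HDM replicate 2 (3.55 CPM) stood further off from the other WT HDM libraries (1.35 to 1.67 CPM).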

How the results depend on the processing

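Of the 10 genes, the difference of AhR-/- to WT after HDM, the difference between states of that difference, and the state difference in each genotype kept their sign in all 16 to 25 alternatives, but not always their size. Within AhR-/-, the state difference ranged from -1.11 to -0.03 for Calhm5, from -0.87 to -0.02 for Fgf18 and from -1.11 to -0.29 for Hps4, and the difference of the differences from 2.10 to 3.17 for Calhm5, the lowest without both AhR-/- HDM libraries with Y-linked reads. For AhR-/- against WT at steady state, the sign held in all alternatives for 6 of 10 and changed in some for Fgf18, Peg3, Calhm5 and Hps6, whose values were between -0.12 and 0.04. In CYP1B1-/-, the calls of Fgf18, Prkca, Cemip2, Calhm5 and Eno2 held in all alternatives in which the gene was tested (with 10 counts required in every library, Fgf18, Calhm5 and Eno2 were not), that of Peg3 was lost in 12 of 17, and Ccdc125 also passed with weighted voom (adjusted p = 0.0342 from limma). The count of genes differing between states in CYP1B1-/- was 5560 and stayed between 4160 and 6796, also with the replicate block (5425).

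Counts over all genes for the AhR-/- contrasts depended on the setting. For the difference of the differences (0 genes with the quasi-likelihood test), the likelihood ratio test gave 221, DESeq2 1236, voom with sample weights 5042 and the replicate block 3, and leaving out a library gave 0 to 1017, the latter without AhR-/- HDM replicate 2. For AhR-/- against WT after HDM (3129), voom with sample weights gave 6669, no filter 1802, the replicate block 1, leaving out both libraries with Y-linked reads 0, and leaving out a library 0 to 4137 (885 without WT HDM replicate 1). At steady state (0), the likelihood ratio test gave 11, DESeq2 13, voom with sample weights 11, and leaving out a library 0 to 1. The cause was not tested.

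The labels do not say whether equal replicate numbers mark a pair, and correlations of same-numbered libraries had both signs. Deviations from the group means of AhR-/- and WT libraries correlated at 0.705, -0.112, -0.207 and 0.162 after HDM and at 0.182, 0.0163 and 0.188 at steady state. Those of CYP1B1-/- between states correlated at -0.0681, -0.119 and 0.0467. For CYP1B1-/- and WT the values were -0.513, 0.637, 0.58 and -0.313 after HDM and 0.0863, 0.0576 and 0.0128 at steady state. The median log2 value of all genes between states in CYP1B1-/- was -0.02, and shifted by 0.131 with RLE and by 0.16 without dominant predicted genes. Depth limits Eno2 and Fgf18 most, with as few as 3 and 4 reads in a library.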
